A study of Mus musculus with 36 samples.

Results

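The 9 genes described here are factors of the naive pluripotent state other than the best known direct targets of STAT3, picked by symbol: Nanog, Tcfcp2l1, Klf2, Zfp42, Prdm14, Tcl1, Dppa3, Dppa5a and Pecam1. All 9 were found among the 21516 genes of the count tables, and all 9 were among the 13498 genes that passed the filter on low counts. The setting of Tcfcp2l1 outside the STAT3 targets holds only loosely, since in mouse embryonic stem cells this gene, now named Tfcp2l1, is known to respond to STAT3 as well.

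Naive pluripotency is the state of the epiblast before implantation, which mouse embryonic stem cells keep in culture. Leukemia inhibitory factor (LIF), a cytokine, sustains it by activating STAT3, and a network of transcription factors that bind and activate one another holds it in place. When cells leave the state on their way to the postimplantation epiblast, the naive factors are turned off while core factors such as Oct4 and Sox2 stay on. Nanog is a homeodomain factor at the centre of the network. Tcfcp2l1 is a CP2 family transcription factor that maintains self-renewal, and Klf2 is a zinc finger factor that shares this role with Klf4 and Klf5. Zfp42 (Rex1) is a zinc finger protein and the classical marker of the naive state, and Prdm14 is a PR domain protein that represses FGF receptor signalling and the de novo DNA methyltransferases. Tcl1 is a coactivator of the AKT kinases. Dppa3 (Stella) protects the maternal genome from demethylation in the zygote and marks early germ cells, and Dppa5a (Esg1) is a KH domain RNA-binding protein. Pecam1 (CD31) is an adhesion molecule of endothelium that is also found on the surface of naive stem cells.

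Bulk RNA was sequenced from a FUCCI line, mouse embryonic stem cells of the 129/sv strain carrying fluorescent transgenes that report where a cell is in its cycle, which had been cultured for 72 h in medium with 15% serum. There were 12 conditions with 3 libraries each (n = 3 for all means and SDs by condition), described by the submitters as triplicate experiments, all on this 1 line. Cells labelled ND (normal differentiation) were grown without LIF, and cells labelled RA were grown without LIF and with 1 µM retinoic acid. With LIF at 1000 U/mL, cells received 300 mM sorbitol (Sorb300), an osmolyte, or 1 of 4 toxicants at a low and a high dose. These were BP (BP1 with 1 µM and BP4 with 4 µM), cortisol (Cort10 with 10 µM and Cort60 with 60 µM), DEP (DEP5 with 5 µM and DEP10 with 10 µM) and PFOA (PFOA60 with 60 µM and PFOA100 with 100 µM). What BP and DEP stand for is not spelled out in the labels. NS (normal stemness) cells had LIF and nothing else added. The comparisons ask how each culture moved cells from the naive state.

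Libraries held 1848254 to 7288084 counts. The NS cells bore core markers of pluripotency: 12 core pluripotency genes summed to 2971 to 4410 CPM (counts scaled to a common library total) in the NS libraries. The sum was 3299 to 3702 CPM in ND and 1123 to 1657 CPM in RA, so it did not set NS apart from ND. In NS Sox2 averaged 792 ± 215 CPM, although Pou5f1, the gene of Oct4, reached only 29.4 ± 5.45 CPM. The libraries numbered 3 stood apart. In the toxicant groups and NS, ribosomal protein genes took 16.8 to 19.7% of the counts of the libraries numbered 3, against 11.6 to 15.2% of those numbered 1 and 2. For this reason calls among the 9 genes that are lost without those numbered 3 are given with and without them. NS library 1 also differed from the others of its group: 14 formative genes, which come on as cells leave the naive state, summed to 2792 CPM there and to 957 and 987 CPM in NS libraries 2 and 3, and it was the lowest of the 3 for Nanog, Tcfcp2l1, Prdm14, Tcl1, Dppa3 and Dppa5a. RNA was measured in bulk, so fewer cells that express a gene and less RNA of it per cell cannot be told apart.

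Across the 12 conditions every one of the 9 genes had its lowest mean level in RA. ND came next to lowest for 8 of them, and the exception was Dppa3, for which Sorb300 stood between RA and ND. At the upper end the genes divided. Nanog, Tcfcp2l1, Prdm14, Dppa3 and Dppa5a had their highest mean in NS, whereas Klf2, Zfp42, Tcl1 and Pecam1 had it in Sorb300. Most neighbours in these orders could not be separated. For Tcl1 the libraries of RA, of ND and of PFOA60, the next in order, did not overlap one another, and for Zfp42 only the step from BP1 to the top condition, Sorb300, was free of overlap. For Nanog, Klf2 and Pecam1 the lowest condition, RA, did not overlap ND. For Tcfcp2l1 RA and ND overlapped and both lay below all libraries of PFOA60. For Dppa3 RA and Sorb300 overlapped and Sorb300 lay below all ND libraries. For Prdm14 and Dppa5a no neighbouring conditions were free of overlap. The share of all genes with such an order or with such steps is not given here, so these are descriptions of the 9 genes only. The SD relative to the mean ran from 0.063 for Nanog in DEP10 to 0.920 for Prdm14 in PFOA100, and Prdm14 was counted in only 1 to 64 reads per library.

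**Figure D1:**
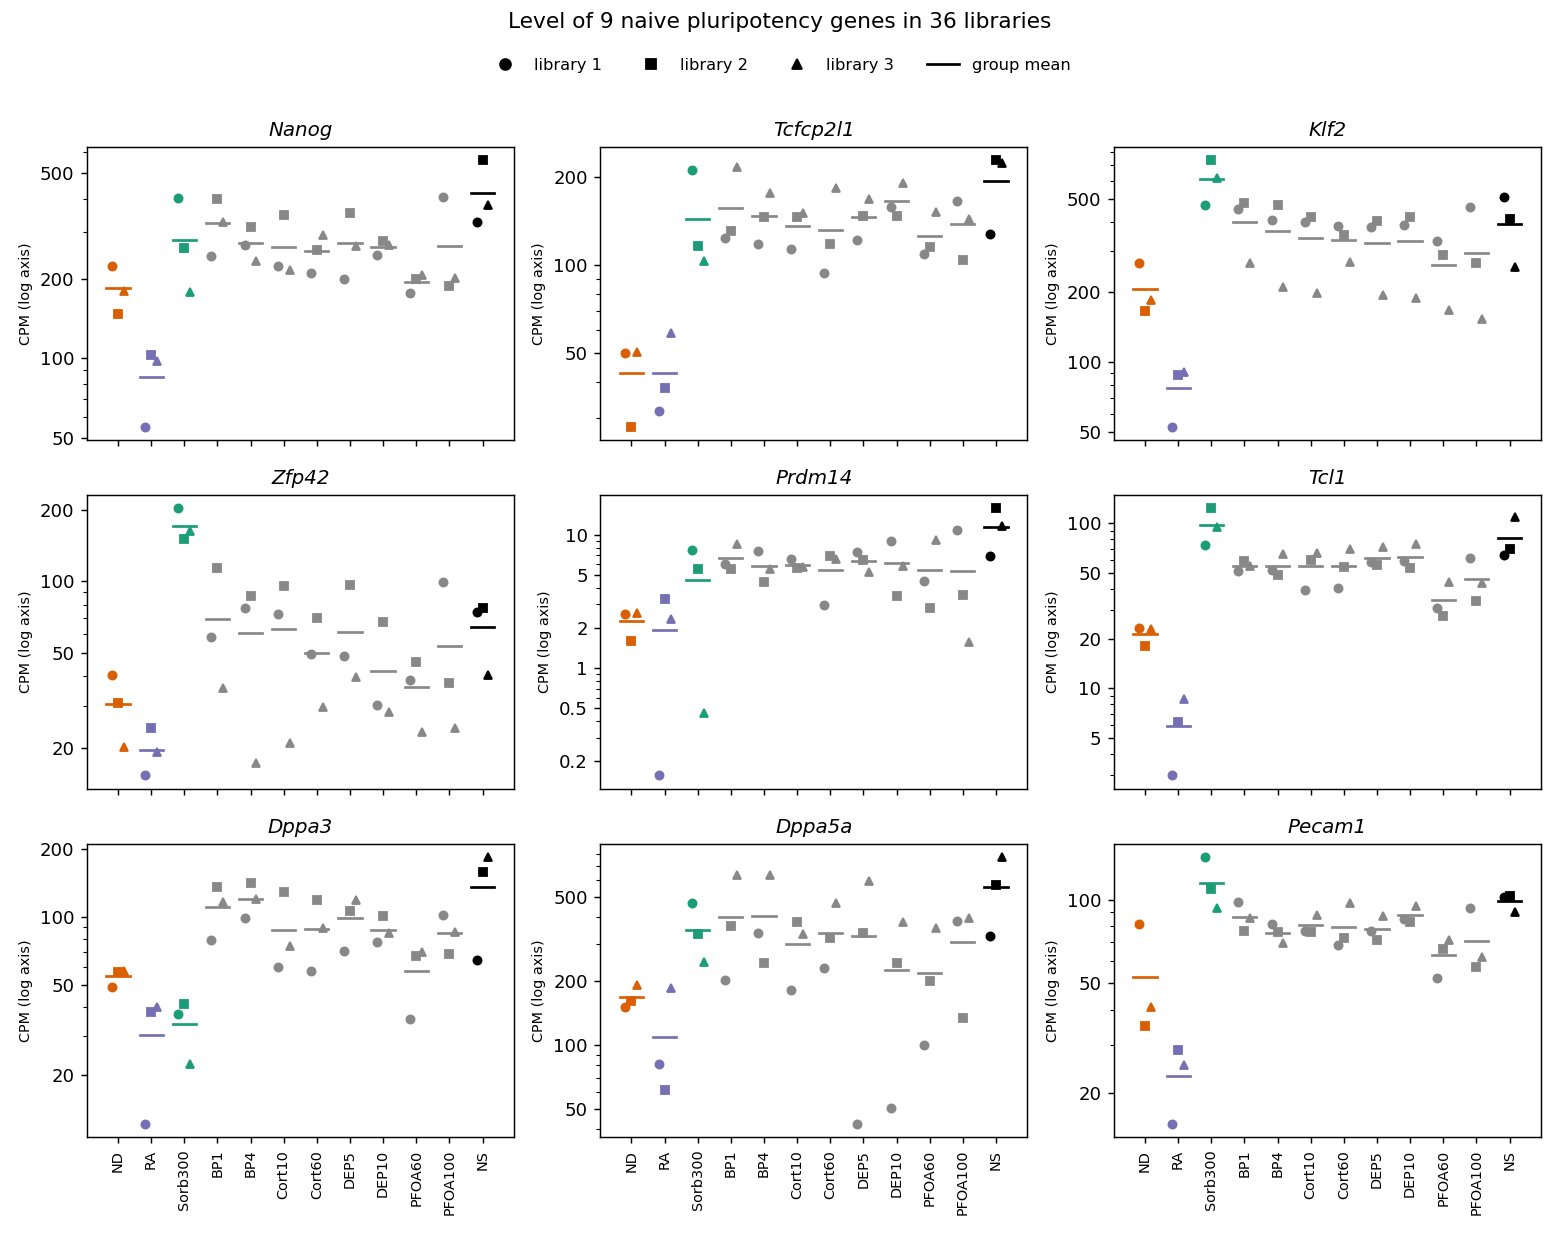
Level of each gene in the 36 libraries, in CPM on a log axis, by culture condition; symbols mark the library number and bars the group mean. RA has the lowest mean in all 9 panels, and Sorb300 the highest for Klf2, Zfp42, Tcl1 and Pecam1.

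**Figure D2:**
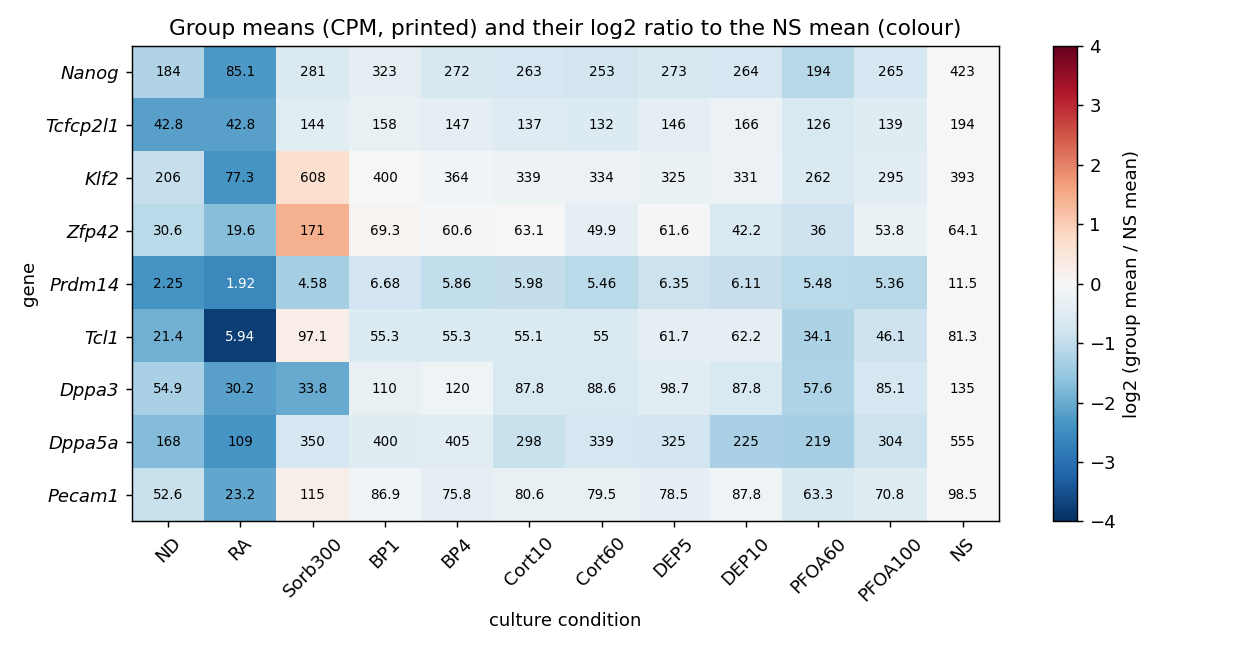
Group means in CPM (printed numbers, rows are genes and columns culture conditions) with the colour giving the log2 ratio to the NS mean. Blue marks lower and red higher means than NS; the deepest blue is Tcl1 in RA at 5.94 CPM and the strongest red Zfp42 in Sorb300 at 171 CPM.

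For 5 of the 9 genes RefSeq's promoter windows (GRCm38.p6, not the build of the count tables) gave the sequence upstream of the annotated transcription start. No window was found for Prdm14, Dppa3, Dppa5a and Pecam1. Among those shown, Nanog, Tcfcp2l1 and Tcl1 fell without LIF. Klf2 and Zfp42 had their highest mean under sorbitol, though neither passed the threshold against NS there. Each line is the 250 bases before the start, read on the gene's strand. Capitals mark matches on either strand to 1 of 7 motifs: an OCT4 half-site (TTTGCAT), a SOX2 half-site (ACAATG), and motifs named here for KLF (GGGNGTGG), STAT3 (TTCCNGGAA), ESRRB (TCAAGGTCA), SP1 (GGGCGG) and the TATA box (TATAAA).
Nanog, second of its annotated starts, chr6:122707315-122707564, plus strand: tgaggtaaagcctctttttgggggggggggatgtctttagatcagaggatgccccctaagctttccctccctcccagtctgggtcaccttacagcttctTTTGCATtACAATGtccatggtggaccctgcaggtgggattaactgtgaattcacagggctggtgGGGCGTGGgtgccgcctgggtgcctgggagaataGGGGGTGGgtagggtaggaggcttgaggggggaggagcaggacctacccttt
Tcfcp2l1, chr1:118627695-118627944, plus strand: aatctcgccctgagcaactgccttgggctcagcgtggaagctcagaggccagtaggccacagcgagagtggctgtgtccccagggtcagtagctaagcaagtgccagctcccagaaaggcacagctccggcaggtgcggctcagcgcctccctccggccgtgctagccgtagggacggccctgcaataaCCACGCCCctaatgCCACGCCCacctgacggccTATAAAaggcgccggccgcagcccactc
Klf2, chr8:72318812-72319061, plus strand: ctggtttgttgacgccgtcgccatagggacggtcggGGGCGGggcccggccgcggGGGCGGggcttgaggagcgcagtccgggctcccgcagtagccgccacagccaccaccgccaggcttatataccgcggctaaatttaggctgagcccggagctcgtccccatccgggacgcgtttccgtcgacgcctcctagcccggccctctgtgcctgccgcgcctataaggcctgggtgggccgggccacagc
Zfp42, chr8:43307010-43307259, minus strand: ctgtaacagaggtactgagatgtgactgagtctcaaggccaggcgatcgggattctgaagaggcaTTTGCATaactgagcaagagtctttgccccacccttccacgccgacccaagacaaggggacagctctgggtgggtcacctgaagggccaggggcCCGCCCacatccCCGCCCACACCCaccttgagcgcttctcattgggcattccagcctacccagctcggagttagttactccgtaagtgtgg
Tcl1, chr12:105222738-105222987, minus strand: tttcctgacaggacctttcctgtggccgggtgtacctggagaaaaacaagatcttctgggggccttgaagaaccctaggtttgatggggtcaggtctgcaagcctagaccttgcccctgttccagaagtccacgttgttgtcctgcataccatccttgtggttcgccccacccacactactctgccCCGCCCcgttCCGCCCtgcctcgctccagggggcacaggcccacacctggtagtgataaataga
In the Nanog sequence the capitals mark an OCT4 half-site 151 bases before the start, followed after a single base by a SOX2 half-site, and KLF matches 86 and 52 bases before the start. A neighbouring OCT4 and SOX2 pair is the known composite element of the mouse Nanog promoter. The OCT4 half-site stood in 4.627% of 32851 RefSeq windows of 300 bases and the SOX2 half-site in 12.569%. Tcfcp2l1 held a pair of KLF matches and a TATA match 28 bases before its start, and the Zfp42 sequence held an OCT4 half-site and 1 KLF match that overlaps 1 of its SP1 matches. Klf2 and Tcl1 held SP1 matches alone. KLF matches stood in 17.622% of all windows, SP1 matches in 35.658% and TATA matches in 13.616%, so none of these is rare. The STAT3 and ESRRB spellings, present in 1.148% and 0.423% of windows, were in none of the 5 sequences.

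LIF withdrawal lowered Tcfcp2l1, Tcl1 and Nanog. Tcfcp2l1 had 50.1, 28.0 and 50.4 CPM in ND libraries, against 128, 229 and 224 CPM in NS libraries. Tcl1 had 23.4, 18.0 and 23.0 CPM in ND, against 64.5, 69.9 and 109 CPM in NS. Nanog had 224, 148 and 180.3 CPM in ND, against 328, 561 and 379 CPM in NS. For each of these genes every ND library lay below every NS library. In edgeR's quasi-likelihood test over all 13498 genes, with Benjamini-Hochberg adjustment and a threshold of 0.05, the log2 fold change was -2.18 (SE 0.31, adjusted p = 0.000113) for Tcfcp2l1 and -1.92 (SE 0.30, adjusted p = 0.000355) for Tcl1. These correspond to levels 4.53-fold and 3.79-fold lower in ND. For Nanog it was -1.20 (SE 0.30, adjusted p = 0.0359), 2.30-fold lower. This makes 3 of 9 genes past the threshold, where 1.19% of all genes passed it in either direction and 0.933% did so as lower.

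The other 6 genes had log2 fold changes of -0.91 to -2.34 that did not pass. Prdm14 had 2.55, 1.61 and 2.60 CPM in ND (13, 10 and 18 reads), against 6.98, 15.7 and 11.7 CPM in NS (21, 64 and 47 reads), a log2 fold change of -2.34 with an SE of 0.65 (adjusted p = 0.0617). Pecam1 had 81.5, 35.1 and 41.1 CPM in ND, against 102, 103 and 90.01 CPM in NS (log2 fold change -0.91, adjusted p = 0.0613). Dppa3 had 49.1, 57.5 and 58.02 CPM in ND, against 64.5, 157 and 184 CPM in NS (log2 fold change -1.30, adjusted p = 0.0704). In each of these 3 genes, too, all ND libraries were below all NS libraries, and the NS libraries of Dppa3 were far apart. Dppa5a (adjusted p = 0.289) averaged 168 ± 20.5 CPM in ND libraries, against 555 ± 223 CPM in NS libraries. Zfp42 (adjusted p = 0.436) averaged 30.6 ± 10.1 CPM in ND libraries, against 64.1 ± 20.5 CPM in NS libraries. Klf2 (adjusted p = 0.280), with a mean of 206 ± 53.4 CPM in ND libraries and of 393 ± 128 CPM in NS libraries, was the 1 gene of the 9 whose ND and NS libraries overlapped. Libraries free of overlap were found for 11.6% of all genes in this direction. The median log2 fold change was -1.30 over the 9 genes and 0.01 over all genes.

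ND and NS libraries of the same number deviated together, with correlations of 0.16 to 0.22. A fit with the number as a block was therefore made too, its number effect shared by all 12 groups, also those whose numbers do not pair. It called 6 of the 9 genes lower, adding Dppa3 (adjusted p = 0.00801), Pecam1 (adjusted p = 0.0158) and Prdm14 (adjusted p = 0.0207) to the 3 above, where 2.52% of all genes were called lower. Tcfcp2l1 and Tcl1 also kept their calls when each of the 6 ND and NS libraries was left out in turn. In the authors' deposited table Tcfcp2l1 (FDR 1.48e-07), Tcl1 (1.90e-06), Nanog (0.0208) and Prdm14 (0.0230) were under an FDR of 0.05. The Nanog call was lost in 5 of these 6 fits and held without NS library 1, with adjusted p from 0.0169 to 0.248. It was also lost without the libraries numbered 3 in all groups (adjusted p = 0.273). Without NS library 1 Prdm14 (adjusted p = 0.0357) and Dppa3 (adjusted p = 0.0117) passed as lower as well. Against the 24 toxicant libraries, a comparison that holds no NS library, Tcfcp2l1 was again lower in ND, at 42.8 ± 12.8 CPM in ND and 144 ± 30.2 CPM in toxicant libraries (log2 fold change -1.74, adjusted p = 0.000149). So was Tcl1, at 21.4 ± 2.97 CPM in ND and 53.1 ± 12.7 CPM in toxicant libraries (log2 fold change -1.28, adjusted p = 0.00298). These were the 2 of 9 genes past the threshold in that comparison, against 1.01% of all genes, and Nanog was not among them (log2 fold change -0.51, adjusted p = 0.378). Tcl1 did not pass there without ND library 2 (adjusted p = 0.112).

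With retinoic acid and without LIF all 9 genes fell relative to NS. Where 24.1% of all genes passed the threshold in either direction and 13.8% did so as lower, 9 of 9 members passed as lower, by 3.29-fold to 13.7-fold, with a median log2 fold change of -2.32 against -0.0011 over all genes. Tcl1 fell most. It had 2.98, 6.25 and 8.58 CPM in RA, against 64.5, 69.9 and 109 CPM in NS, a log2 fold change of -3.77 (SE 0.33, adjusted p = 5.12e-10). Nanog had 55.1, 103 and 97.6 CPM in RA, against 328, 561 and 379 CPM in NS, for a log2 fold change of -2.32 with an SE of 0.31 (adjusted p = 1.38e-06). Pecam1 had 15.5, 28.6 and 25.3 CPM in RA, against 102, 103 and 90.01 CPM in NS, for a log2 fold change of -2.10 with an SE of 0.26 (adjusted p = 3.89e-07). No library of RA reached a library of NS for any of the 9 genes, as was so for 22.2% of all genes in this direction.

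Klf2 had 52.8, 88.4 and 90.6 CPM in RA, against 509.6, 412 and 256 CPM in NS (log2 fold change -2.35, adjusted p = 7.21e-05). Tcfcp2l1 had 31.7, 38.1 and 58.5 CPM in RA (log2 fold change -2.18, adjusted p = 3.86e-06). Dppa3 had 12.3, 38.1 and 40.1 CPM in RA (log2 fold change -2.18, adjusted p = 9.31e-05). RA library 1 was the lowest of its group for each of these 3 genes. Prdm14 was counted in 1, 10 and 16 reads in RA libraries, with a log2 fold change of -2.66 (SE 0.68, adjusted p = 0.00410). The calls of Dppa5a (adjusted p = 0.0209) and Zfp42 (adjusted p = 0.0307) were the least secure. Dppa5a had 81.4, 61.2 and 185 CPM in RA and lost its call in 3 of 6 fits that left out a library, those without RA library 1, RA library 2 or NS library 3, and also without the libraries numbered 3 in all groups (adjusted p = 0.0701). Zfp42 had 15.4, 24.3 and 19.2 CPM in RA and lost its call in 5 of the 6, holding only without NS library 3, with adjusted p between 0.0432 and 0.120. The other 7 calls held in all 6. Against the 24 toxicant libraries, too, all 9 genes were lower in RA (37.6% of all genes passed in either direction), with adjusted p from 9.77e-11 for Tcl1 to 0.0498 for Dppa5a. With libraries left out 6 to 9 of these calls remained: Dppa5a was lost in 4 of 6 fits, Zfp42 without RA library 1 or RA library 3, and Prdm14 without RA library 1. Without the libraries numbered 3 in all groups Dppa5a was lost there too (adjusted p = 0.118).

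Set directly against ND, RA had lower Tcl1 (log2 fold change -1.85, SE 0.32, adjusted p = 7.41e-05), Klf2 (-1.42, SE 0.39, adjusted p = 0.0102), Pecam1 (-1.19, SE 0.26, adjusted p = 0.00113) and Nanog (-1.11, SE 0.30, adjusted p = 0.00801). That is 4 of 9 genes, where 18.2% of all genes passed in either direction and 10.1% as lower. Tcfcp2l1 did not differ detectably: it averaged 42.8 ± 13.96 CPM in RA and 42.8 ± 12.8 CPM in ND, and the 95% interval of the log2 fold change ran from -0.61 to 0.61. Zfp42, Prdm14, Dppa3 and Dppa5a had log2 fold changes of -0.32 to -0.87 that did not pass. The Tcl1 call held in all 6 fits with a library left out. Without ND library 1 the other 3 calls were lost, and without RA library 1 those of Nanog and Klf2 were lost. Without the libraries numbered 3 in all groups Nanog did not pass (adjusted p = 0.0574).

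**Figure D3:**
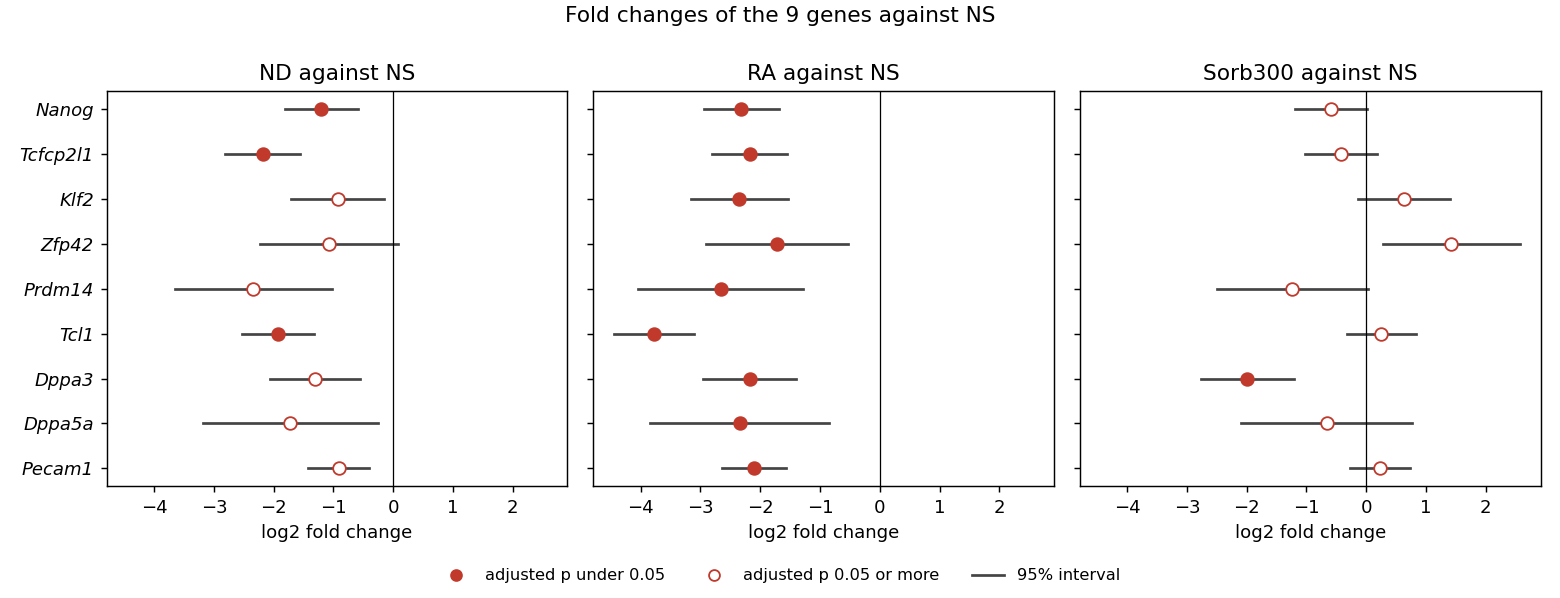
Log2 fold changes of the 9 genes (rows) in ND, RA and Sorb300 against NS, with 95% intervals as bars; filled points passed an adjusted p of 0.05. RA points lie at -1.72 or below, ND points at -0.91 or below, and Sorb300 points run from -1.99 for Dppa3 to 1.42 for Zfp42.

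Under sorbitol Dppa3 fell and no other member passed against NS. Dppa3, at 37.3, 41.4 and 22.5 CPM in Sorb300, against 64.5, 157 and 184 CPM in NS, was the 1 member of 9 that passed the threshold. Over all genes 30.4% passed in either direction, 15.1% as higher and 15.2% as lower, so the members' share was not above that of all genes. The log2 fold change of Dppa3 was -1.99 (SE 0.38, adjusted p = 0.000185), 3.97-fold lower in Sorb300. Its groups did not overlap, a trait whose share over all genes in this direction is not given here. The Dppa3 call held in all 6 fits with a library left out. Without the libraries numbered 3 in all groups it did not pass (adjusted p = 0.0659). Zfp42 went the other way in level, with 202, 150.0 and 162 CPM in Sorb300, against 74.1, 77.7 and 40.5 CPM in NS. Every Sorb300 library was above every NS library, as was so for 18.9% of all genes, but the log2 fold change of 1.42 (SE 0.56) missed the threshold at an adjusted p of 0.0540. In the authors' deposited table Zfp42 was just under it, with an FDR of 0.0449 and a log2 fold change of 1.39.

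The remaining 7 genes overlapped between Sorb300 and NS and did not pass. Klf2 had 474, 736 and 615 CPM in Sorb300, against 509.6, 412 and 256 CPM in NS (log2 fold change 0.63, 95% interval -0.14 to 1.41). Tcl1 had 73.7, 123 and 94.6 CPM in Sorb300, against 64.5, 69.9 and 109 CPM in NS (log2 fold change 0.25, 95% interval -0.32 to 0.83). Pecam1 had 142, 109 and 93.3 CPM in Sorb300, against 102, 103 and 90.01 CPM in NS (log2 fold change 0.23, 95% interval -0.28 to 0.73). For these 3 genes the intervals held values on both sides of 0. Nanog had 405, 260.0 and 178 CPM in Sorb300 (log2 fold change -0.59) and Tcfcp2l1 had 212, 116 and 104 CPM (log2 fold change -0.43). For both, Sorb300 library 1 was the highest, and without it both passed as lower, with adjusted p of 0.0193 for Nanog and 0.0399 for Tcfcp2l1. Prdm14 was counted in 42, 23 and 1 reads (log2 fold change -1.24, adjusted p = 0.130), and Dppa5a averaged 349.9 ± 112 CPM in Sorb300 and 555 ± 223 CPM in NS (log2 fold change -0.66, adjusted p = 0.501).

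The comparison of Sorb300 with the 24 toxicant libraries, all with LIF, set 3 against 24 libraries. Sorb300 was higher for Zfp42 (log2 fold change 1.67, SE 0.36, adjusted p = 0.000320), Tcl1 (0.89, SE 0.20, adjusted p = 0.000314), Klf2 (0.88, SE 0.26, adjusted p = 0.00590) and Pecam1 (0.57, SE 0.18, adjusted p = 0.00767), and lower for Dppa3 (-1.40, SE 0.31, adjusted p = 0.000385). These are 4 genes higher and 1 lower of 9, where 49.7% of all genes passed in either direction, 27% as higher and 22.7% as lower, so that the members' share was near that of all genes. No Sorb300 library of Zfp42 fell within the toxicant range of 17.3 to 113 CPM. The calls of Zfp42, Tcl1 and Dppa3 held in all 6 fits with libraries left out; Klf2 did not pass without Sorb300 library 2, and Pecam1 did not pass without Sorb300 library 1 or without the second toxicant libraries. Nanog, Tcfcp2l1, Prdm14 and Dppa5a had log2 fold changes of -0.27 to 0.19, near 0.

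Against ND, which had lost LIF, Sorb300 was higher for Zfp42 (log2 fold change 2.49, SE 0.58, adjusted p = 0.00126), Tcl1 (2.18, SE 0.30, adjusted p = 8.01e-07), Tcfcp2l1 (1.75, SE 0.31, adjusted p = 2.99e-05), Klf2 (1.56, SE 0.39, adjusted p = 0.00198) and Pecam1 (1.13, SE 0.25, adjusted p = 0.000571). All 5 held when each library was left out, and 37.7% of all genes passed in this comparison, 19.3% as higher. Dppa3 was the exception in direction: it averaged 33.8 ± 9.95 CPM in Sorb300 and 54.9 ± 5.01 CPM in ND. Its libraries did not overlap, a trait whose share over all genes is not given here. The log2 fold change of -0.69 did not pass (adjusted p = 0.148).

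No toxicant group passed the threshold for any of the 9 genes in edgeR's test. The background was low as well. In 7 of the 8 groups 0% of genes passed against NS, with 351 to 817 genes at an unadjusted p under 0.05. DESeq2 called none of the 9 genes in these 7 groups, and the number of the 9 genes at an unadjusted p under 0.05 was 0 in BP1, 2 in PFOA100 and 1 in each of the others. The 8 comparisons share the same 3 NS libraries, and 69 of their 72 log2 fold changes for the 9 genes were below 0. Nanog was below all NS libraries in 20 of 24 toxicant libraries, Pecam1 in 20, Tcl1 in 19 and Prdm14 in 18. Such counts were not taken over all genes. Whether NS was high or the toxicant groups low was not tested. Nanog ran from 176 to 406 CPM over the toxicant libraries with a median of 251 CPM, against 328 to 561 CPM in NS. Tcl1 ran from 27.3 to 74.4 CPM with a median of 54.9 CPM, against 64.5 to 109 CPM in NS. For Dppa3 3 of the 24 toxicant libraries lay below all NS libraries, and for Klf2 6 did. Zfp42 was the 1 gene with toxicant libraries, 5 of them, above all of NS. Pooled, the 24 libraries gave log2 fold changes of -0.25 to -0.96 against NS. In edgeR's test 0 of 9 genes passed, where 0.0889% of all genes did, and DESeq2 called none of the 9. An unadjusted p under 0.05 was found for 5 of the 9 and for 946 of all 13498 genes.

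The lowest toxicant group was PFOA at its lower dose, which had the lowest toxicant mean for 8 of the 9 genes, Prdm14 being the exception. Tcl1 had 30.8, 27.3 and 44.3 CPM in PFOA60, against 64.5, 69.9 and 109 CPM in NS, for a log2 fold change of -1.27 with an SE of 0.29 (adjusted p = 0.0850). Nanog had 176, 199 and 207 CPM in PFOA60, against 328, 561 and 379 CPM in NS, for a log2 fold change of -1.12 with an SE of 0.30 (adjusted p = 0.146). Pecam1 had 52.3, 66.4 and 71.2 CPM in PFOA60, against 102, 103 and 90.01 CPM in NS, for a log2 fold change of -0.64 with an SE of 0.25 (adjusted p = 0.482). In these 3 genes the groups did not overlap, as was so for 6.96% of all genes in this direction. None of the 9 genes passed in edgeR's test, where 0.0741% of all genes did. An unadjusted p under 0.05 was found for 5 of the 9 and for 1014 of all 13498 genes. PFOA60 and NS libraries of the same number also deviated together. With the block by number, shared by all 12 groups, Tcl1 (adjusted p = 0.0125) and Dppa3 (adjusted p = 0.0423) passed as lower, where 0.311% of all genes did. DESeq2 called Tcl1 (adjusted p = 0.0153) and Nanog (adjusted p = 0.0455), and without NS library 1 edgeR called Tcl1 (adjusted p = 0.0377). The authors' deposited table gave Tcl1 an FDR of 0.0206 here.

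Dose made no detectable difference. Between the 4 higher and the 4 lower doses the log2 fold changes of the 9 genes lay between -0.13 and 0.13, their 95% intervals between -0.70 for Zfp42 and 0.75 for Dppa5a, and 0 of 9 genes passed, as 0% of all genes did (208 had an unadjusted p under 0.05, none of them among the 9). The dose effect did not differ detectably between the 4 toxicants in the test of that interaction, where the 9 unadjusted p ran from 0.389 to 0.989.

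The number of a library moved several of these genes. This was looked for after the values had been seen. In the fit with the replicate number as a term, 6 of the 9 genes passed for the number, where 31.4% of all genes did. Klf2 and Zfp42 were low in the libraries numbered 3: number 3 minus number 1 was -0.69 on the log2 scale for Klf2 (adjusted p = 0.000336) and -0.85 for Zfp42 (adjusted p = 0.000297), and in all 9 of the toxicant groups and NS number 3 was the lowest for both genes. Dppa5a went the other way, by 1.11 (adjusted p = 0.0156), and its library numbered 3 was the highest in 8 of the 9 groups. Tcl1 (0.40, adjusted p = 0.0244) and Tcfcp2l1 (0.36, adjusted p = 0.0278) were also higher in the libraries numbered 3, which were the highest in 7 of 9 groups for each. For Dppa3 the libraries numbered 1 were low, with number 2 higher by 0.63 and number 3 by 0.50 (adjusted p = 0.00204). Nanog, Prdm14 and Pecam1 did not pass. The higher share of ribosomal protein counts in the libraries numbered 3 moved with these values, and its part in them was not tested.

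**Figure D4:**
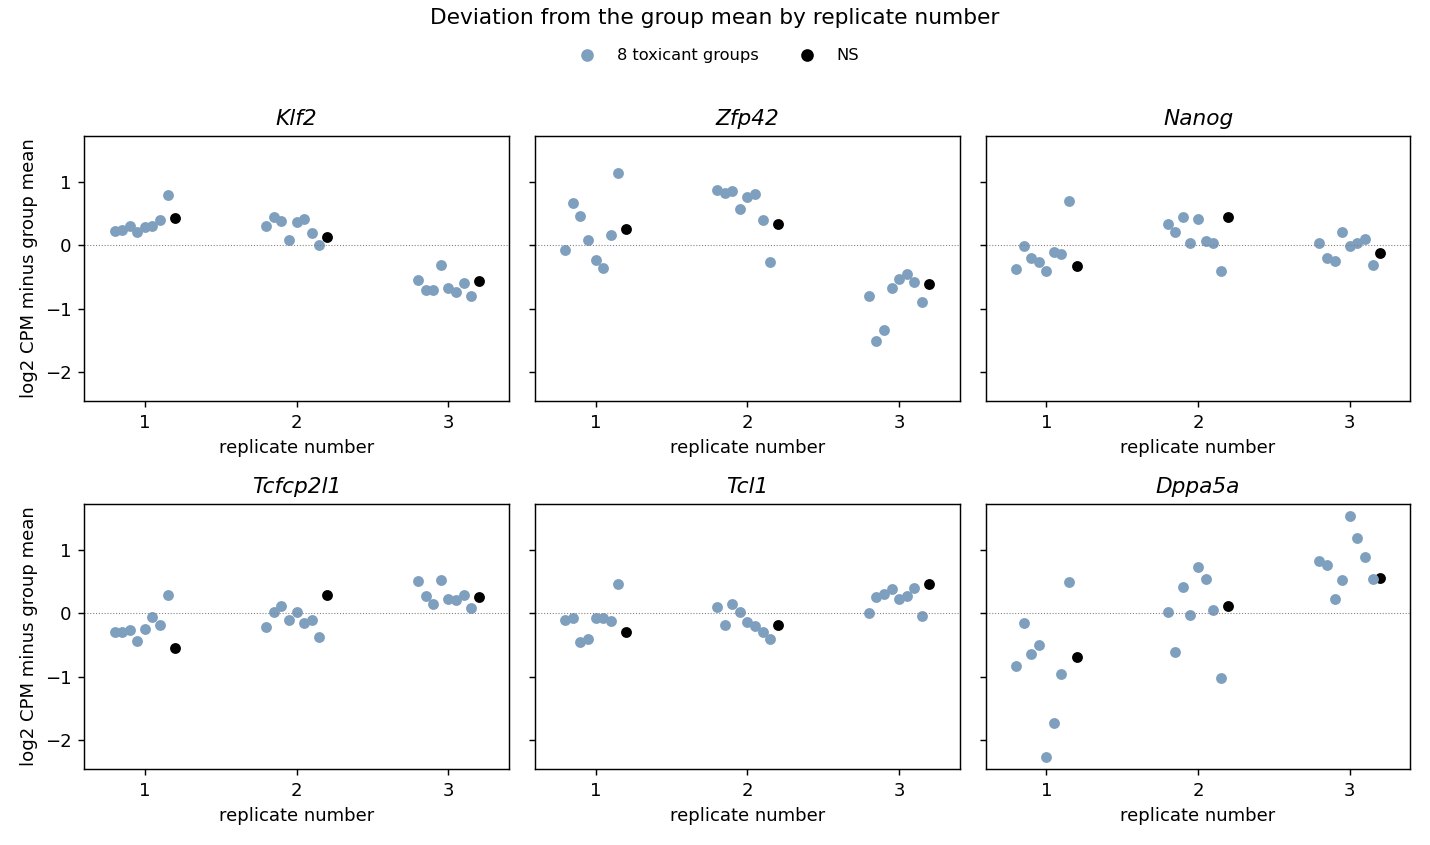
Log2 CPM of each library minus the mean of its group, by replicate number, in the 8 toxicant groups and NS for 6 of the genes. Klf2 and Zfp42 are lowest in library 3 of all 9 groups, and Dppa5a is highest there in 8 of 9.

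Described over the 12 group means of log2 CPM, the closest pair among the 9 genes was Tcl1 and Pecam1, with a Pearson r of 0.99, and the least alike were Zfp42 and Dppa3, with 0.13. Without RA the values of these pairs were 0.98 and -0.34. Klf2 stayed close to Zfp42 (0.88 with RA and 0.94 without). Within groups, over the deviations of the 36 libraries from their group means, Klf2 and Zfp42 had an r of 0.82 and Klf2 and Dppa5a an r of -0.50, and all 3 are among the genes that moved with the library number. All these values share libraries and scaling, and they are descriptions only. Among all genes with a mean of at least 10 CPM, the pattern of group means most like Tcl1 was that of Pecam1, followed by Sept1, a septin (r = 0.98). Sept1 and Pecam1 were the nearest to Klf2 (both 0.98). Tcfcp2l1 was most like Icam1, an adhesion molecule (0.98), and Cox6a1, a subunit of cytochrome oxidase (0.96). For Nanog the nearest were Cox5a, another such subunit (0.96), and Ccdc117 (0.95). For Zfp42 they were Polrmt, the mitochondrial RNA polymerase (0.98), and Btrc, an F-box protein (0.97), and for Prdm14 Fam81a (0.98) and Cox8a (0.95). Dppa3 was nearest to Rps28, a ribosomal protein (0.96), and Gfpt2 (0.96), and Dppa5a to Polr2c, an RNA polymerase subunit (0.95), and Hnrnpf, a splicing factor (0.90).

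Other genes of the naive state moved in company with the 9 in part. Of 16 further naive genes, LIF and STAT3 targets among them, 7 were lower and none higher in ND than in NS, 7 lower and 1 higher in RA, and none lower and 9 higher in Sorb300, with a median log2 fold change of -1.33 in ND, -0.76 in RA and 1.21 in Sorb300. In ND Socs3, the feedback inhibitor of LIF signalling, fell to 28.8 ± 5.19 CPM in ND, against 194 ± 37.6 CPM in NS (log2 fold change -2.75, adjusted p = 0.000113). In RA the member with the smallest p was Fgf4, at 18.6 ± 10.6 CPM in RA and 266 ± 48.0 CPM in NS (log2 fold change -3.85, adjusted p = 4.44e-10), and the 1 that was higher was Gbx2. In Sorb300 Tbx3, a T-box factor, averaged 563 ± 2.11 CPM in Sorb300 and 113 ± 50.5 CPM in NS (log2 fold change 2.31, adjusted p = 1.61e-05). The share of all genes that passed as lower was 0.933% in ND, 13.8% in RA and 15.2% in Sorb300, and 15.1% passed as higher in Sorb300. In either direction 24.1% passed in RA. Whether this list of 16 differs from the 9 genes described here was not tested. Of 12 core genes, which hold both naive and later pluripotent cells, 0 passed in ND, 7 were lower in RA, and 3 were higher and 2 lower in Sorb300. In RA Pou5f1 averaged 2.15 ± 0.983 CPM in RA and 29.4 ± 5.45 CPM in NS (log2 fold change -3.86, adjusted p = 1.65e-08). Of the 14 formative genes only Etv4 passed in ND, as lower, while the median log2 fold change was 1.25, with NS library 1 high in these genes as given above. Against the toxicant libraries 3 of the 14, Fgf5, Dnmt3b and Sox3, were higher in ND and none was lower, where 1.01% of all genes passed in either direction. Against NS, in RA 2 were higher and 8 lower, and in Sorb300 1 was higher and 2 lower.

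The relatives of the 9 genes did not all move with them. Among 17 KLF genes, Klf4 (log2 fold change -1.94, adjusted p = 0.000849) and Klf5 (-1.18, adjusted p = 0.00226) were lower in ND and were among 4 KLF genes higher in Sorb300. Klf5 averaged 1158 ± 219.9 CPM in Sorb300 and 436 ± 67.2 CPM in NS. Another 4 KLF genes were lower in Sorb300. In RA 4 KLF genes, Klf2, Klf4, Klf14 and Klf15, were lower and Klf6 was higher. Over all genes 0.933% passed as lower in ND, 13.8% as lower in RA, and 15.1% as higher and 15.2% as lower in Sorb300. Of the CP2 and grainyhead genes, Tcfcp2, a close relative of Tcfcp2l1, was higher in RA (0.83, adjusted p = 0.0474) and in Sorb300 (0.97, adjusted p = 0.0171) than in NS. Yy1, a zinc finger factor related to Zfp42, was also higher in both, by 0.83 on the log2 scale in RA (adjusted p = 0.00664) and 1.13 in Sorb300 (adjusted p = 0.000234). Of the 7 genes of the Tcl1 family only Tcl1 and Mtcp1 had enough counts to be tested, and Mtcp1 did not pass in ND, RA or Sorb300. Of the KH domain genes related to Dppa5a, Ooep was lower in ND (log2 fold change -2.14, adjusted p = 0.0148) and RA (-2.33, adjusted p = 0.000437), and 2410004A20Rik, which RefSeq names Khdc3, was lower in ND (-2.23, adjusted p = 0.00907) and higher in Sorb300 (1.66, adjusted p = 0.00384). Akt1, a kinase that Tcl1 activates, was higher in RA than in NS (log2 fold change 1.47, adjusted p = 0.000476) and did not pass in ND or Sorb300.

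Nanog and Dppa3 lie in one gene cluster on mouse chromosome 6 together with Gdf3, a TGF-beta family ligand, Apobec1, a cytidine deaminase, and Slc2a3, a glucose transporter. The cluster did not move as one. Gdf3 averaged 11.6 ± 3.62 CPM in RA and 56.4 ± 25.3 CPM in NS (log2 fold change -2.30, adjusted p = 1.07e-05), like its neighbours, but 314 ± 126 CPM in Sorb300 (log2 fold change against NS 2.48, adjusted p = 1.38e-06), where Dppa3 was lower. Apobec1 was lower in RA (-2.59, adjusted p = 3.27e-05) and in Sorb300 (-1.83, adjusted p = 0.000897), and Slc2a3 did not pass in ND, RA or Sorb300. None of these 3 neighbours passed in ND. A list of 11 genes held Prdm14 itself and genes known to work with it or to be repressed by it. None of the 11 passed in ND, where Dnmt3b, a de novo methyltransferase, averaged 1256 ± 284 CPM in ND and 457 ± 403 CPM in NS (adjusted p = 0.0625). In RA 6 of the 11 were lower than in NS, Prdm14, Dnmt3a and Dnmt3b among them, and 1 was higher. In Sorb300 1 was higher and 1 lower. The higher was Dnmt3l, the cofactor of Dnmt3b, which averaged 1456 ± 473 CPM in Sorb300 and 265 ± 60.7 CPM in NS (log2 fold change 2.46, adjusted p = 1.15e-06). The lower was Dnmt3a (-0.55, adjusted p = 0.0399). Over all genes 1.19% passed in either direction in ND, 24.1% in RA and 30.4% in Sorb300.

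Some markers of other cells moved beside the 9 genes in ND, RA and Sorb300. Against NS, 1.19% of all genes passed in either direction in ND, 24.1% in RA and 30.4% in Sorb300. Since Pecam1 also marks endothelium, 13 other endothelial genes were summed: 97.2 to 126 CPM in ND libraries, 92.3 to 118 CPM in RA, 146 to 247 CPM in Sorb300 and 94.4 to 139 CPM in NS. Of the 10 endothelial genes tested, Pecam1 included, none passed in ND, 1 was higher and 3 were lower in RA, and in Sorb300 only Eng passed, as higher. The 10 extraembryonic endoderm genes summed to 741 to 1409 CPM in RA libraries, against 205 to 298 CPM in NS, and 9 of 9 tested were higher in RA. In Sorb300 they summed to 235 to 510 CPM, with 4 of 9 higher (Dab2, Col4a2, Lama1 and Foxa2) and 1 lower. The 8 trophoblast genes summed to 1026 to 1819 CPM in RA and 473 to 1117 CPM in Sorb300, against 288 to 369 CPM in NS, with 4 of 7 tested higher and 1 lower in RA and 6 of 7 higher in Sorb300. In ND Eomes was higher and Tcfap2c lower among them. Hand1, among them, averaged 180 ± 69.9 CPM in Sorb300 and 8.87 ± 3.69 CPM in NS. The 10 fibroblast and feeder genes summed to 955 to 995 CPM in RA, 704 to 887 CPM in Sorb300 and 583 to 724 CPM in NS, with 4 of 8 tested higher and 1 lower in RA, and none higher and 2 lower (Col1a2 and Thy1) in Sorb300. The 8 primordial germ cell genes other than Prdm14 and Dppa3 summed to 116 to 144 CPM in ND and 914 to 1259 CPM in RA, against 218 to 531 CPM in NS. In RA most of it was Stra8, a gene that retinoic acid is known to induce, at 841 ± 190 CPM in RA and 123 ± 112 CPM in NS. In ND Stra8 and Tcfap2c were lower than in NS. The part of such cells in the values of the 9 genes was not tested.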

How the data were processed

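Bulk 3' RNA sequencing (Lexogen QuantSeq, per the labels' protocols) covered 36 libraries in 12 groups of 3, named from the sample labels. The 11 deposited tables, each of 1 condition and the same 3 NS columns, hold the authors' raw counts per gene for 21516 genes. They also hold the authors' log2 fold change and FDR (an adjusted p-value). Per the submitters' processing notes, build mm9 and the tools edgeR, HTSeq, STAR and CASAVA 1.8.2 were used, and the sources give no settings, annotation or strand. Nanog, Dppa3, Dppa5a and Pou5f1 have near-identical pseudogenes that could take part of their reads.

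From the counts, filterByExpr kept 13498 genes, libraries were scaled by TMM, and 1 model with 12 group means was fitted with edgeR 4.0.16 (glmQLFit, robust). It left 24 residual degrees of freedom, and the common BCV was 0.306. There were 18 comparisons and 1 interaction of dose with toxicant. Adjusted p-values are Benjamini-Hochberg over all genes tested, at 0.05. SE was taken as the size of the log2 fold change over the root of F, and intervals are 95%. CPM uses TMM-scaled totals, and log2 CPM a prior count of 2. A floor of 3 counts is 0.412 to 1.62 CPM and covers counting error only. Chi-square per degree of freedom between replicates was 4.50 to 51.3, so none was a repeat of another within sampling noise.

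Same-numbered libraries deviated together with those of NS at every number (correlation over 0.1) for 7 of 13 pairs of groups checked: PFOA60, DEP10, DEP5, Cort10, BP4, BP1 and ND. The numbers were taken as pairing there, from the data and not from the labels. The block fit held all 36 libraries, so its number effect was also drawn from groups that do not pair. The statistics were tested on simulated data first. For simulated ND against NS they called 27% of 100 true 2-fold changes and 91% of 100 true 4-fold changes, so most 2-fold changes were missed there. Only ND was changed, and 5 unchanged genes were called. Genes with a mean as low as that of Prdm14 were not among those changed, so these values do not cover it.

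The members and lists were chosen with earlier results of these data known. Named besides the 9 were the 2 genes of most similar group means for each, up to 3 called genes per list by smallest adjusted p, and relatives and neighbours. Fgf5, Gbx2, Lama1, Sox2 and Sox3 fall outside this rule and were chosen after their values were seen. Promoter sequence came from RefSeq tables of GRCm38.p6. Alternatives were DESeq2 1.42.0, DESeq2 size factors, no low-count filter, a replicate block and leaving out libraries; leaving out the libraries numbered 3 of all groups was chosen after seeing the data. Some genes of the lists are not reported here.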

Additional observations from a re-analysis of the deposited data

How the results depend on the processing

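Of the 9 genes, the number past the threshold in Sorb300 against NS was 1 in the reported fit, 2 with DESeq2 size factors (Zfp42 and Dppa3), 2 with DESeq2, 3 with the replicate block (Klf2, Zfp42 and Dppa3; the numbers do not pair these groups) and 0 without the libraries numbered 3. In ND against NS it was 3, and 6 with both the replicate block and DESeq2, the same 6 genes. In PFOA60 against NS it was 0, and 2 with the replicate block and with DESeq2. Leaving out 1 library gave 2 to 5 in ND against NS, 7 to 8 in RA against NS, 1 to 3 in Sorb300 against NS, 0 to 1 in PFOA60 against NS, 1 to 4 in RA against ND, 1 to 3 in ND against the toxicant libraries, 6 to 9 in RA against them, 4 to 5 in Sorb300 against them and 5 to 6 in Sorb300 against ND. Single calls lost besides were Zfp42 in RA against NS without the low-count filter (adjusted p = 0.0656), and Dppa5a in RA against the toxicant libraries without that filter (adjusted p = 0.0735) or with DESeq2 size factors (adjusted p = 0.0617). Without the libraries numbered 3, 5 calls were lost: Nanog in ND against NS and in RA against ND, Dppa3 in Sorb300 against NS, and Dppa5a in RA against NS and against the toxicant libraries. The block changed the call of no other member in the comparisons whose numbers pair; in RA against ND, where they do not, it added Dppa3 (adjusted p = 0.0133).

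Signs turned only for values that had not passed. Tcfcp2l1 in RA against ND was -0.017 with the replicate block and -0.12 without the libraries numbered 3, and -0.30 to 0.19 with 1 library left out. In Sorb300 against the toxicant libraries Tcfcp2l1 was -0.047 without the low-count filter and -0.38 to 0.16 with libraries left out, Prdm14 was 0.18 without the libraries numbered 3 and -0.83 to 0.14 otherwise, Nanog -0.26 to 0.31, and Dppa5a -0.086 to 0.60. In the pooled toxicants against NS, Klf2 ran from -0.45 to 0.019 and Zfp42 from -0.56 to 0.071, and Prdm14 in RA against ND from -0.82 to 0.28. For the single toxicant groups other than PFOA60 and for dose, 765 recomputed values included 39 changes of sign. None of these was past the threshold, and the largest size after a change was 0.43 on the log2 scale.

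Counts over all genes moved more. ND against NS had 161 calls, 552 with the block, 338 with DESeq2, 42 without the libraries numbered 3 and 32 to 312 with 1 library left out. ND against the toxicant libraries had 137, 619, 277, 51 and 19 to 167, in the same order. PFOA60 had 10, 47, 81, 0 and 0 to 40, and 4 without the filter. The pooled toxicants had 12, 47 with the block, 1 without the libraries numbered 3 and 0 to 138. Cort60 had 0, 6 with the block and 8 with DESeq2. DESeq2 called 1 gene in BP1 and 2 in BP4. The cause of these moves was not tested. Depth limits Prdm14 most, with 1 read in RA library 1 and in Sorb300 library 3.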
